A study of Mus musculus with 18 samples.

Results

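The response of brown adipose tissue (BAT) to whole-body loss of caspase-6 was examined in the 6 BAT libraries, of 18 libraries in the series, by comparing 3 caspase-6 knockout (C6KO) libraries with 3 wildtype (WT) libraries across all genes. Of the 25124 genes in the BAT count table, 13595 had enough counts to be tested. RNA from this depot, from inguinal (iWAT) and from epididymal (eWAT) white fat was sequenced after poly(A) selection. The mice were male, on a C57BL/6J background, and both genotypes received the same high fat diet (HFD), with 60% fat, for 12 weeks, starting at 10 to 14 weeks of age. Feeding cohorts were made of littermates and cagemates. The study reported lower body weight, fat mass and BAT weight in C6KO than in WT mice on this diet. Effects of the genotype and of the lower fat mass cannot be told apart in these libraries. C6KO mice lack caspase-6 in every cell, so the adipocytes, the immune cells and all other organs carried the deletion, and there was no chow-fed group among these libraries. Whether each library came from 1 animal was not given in the sources used here. The submitters call the libraries biological replicates, and p-values measure the spread between these libraries.

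Brown adipocytes hold many small lipid droplets and many mitochondria, and burn fatty acids to make heat through uncoupling protein 1 in the inner mitochondrial membrane. Noradrenaline drives this through beta-adrenergic receptors, cyclic AMP and lipolysis. In long-term obesity, brown fat can whiten: droplets fuse, leptin and other white adipocyte genes are switched on, macrophages gather around dying adipocytes and the matrix thickens. Caspase-6 is a protease of the effector class, and the study asked what its loss does to fat tissue in diet-induced obesity.

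Casp6 itself (NM_009811 at chr3:129901415-129914112 of mm10, the genome build of the files) was counted 145, 127 and 139 times in the WT libraries and 26, 65 and 71 times in those of C6KO. Every C6KO library lay below every WT library, and the log2 fold change was -1.50 ± 0.33 (C6KO over WT, ± SE) with an adjusted p of 0.0671 in edgeR's quasi-likelihood test, outside the threshold of 0.05. DESeq2 gave an adjusted p of 0.00316. Transcript remained in the knockout, and which exons the allele removes was not given in the sources used here.

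The libraries held 7803108 to 12428683 counts, and levels are given in CPM (the counts of a gene relative to all counts of its library) scaled by the TMM method, except in the check of markers across depots, where they were left unscaled. In that check Ucp1 was at 4172 to 9682 CPM in the BAT libraries and at no more than 5.80 CPM in any white fat library. Zic1, a transcription factor of the brown lineage, was at 8.31 to 18.5 CPM against at most 0.119 CPM in white fat. The visceral white fat genes Wt1 and Tcf21 had no counts in BAT. Lhx8, which was also checked, did not separate BAT (2.77 to 5.44 CPM) from iWAT (3.01 to 12.5 CPM). In eWAT Lhx8 was at most at 0.722 CPM. Muscle RNA varied. The 46 genes of a skeletal muscle list took 0.257%, 7.45% and 0.505% of counts in WT replicates 1 to 3 and 1.23%, 0.268% and 1.58% in C6KO replicates 1 to 3. Its contractile genes with Ckm took 0.00800%, 3.65% and 0.156% in WT and 0.537%, 0.0398% and 0.667% in C6KO. In WT replicate 1 and C6KO replicate 2 most of the share thus came from other genes of the list, which are not all restricted to muscle. The alpha-actin of skeletal muscle, Acta1, followed with 12.3, 9491 and 281 CPM in WT and 1428, 92.3 and 1248 CPM in C6KO. WT replicate 2 stood apart from the other libraries in all of these measures. The group means were 2.74% ± 4.08 in WT and 1.03% ± 0.681 in C6KO (SD, n = 3 each, exact two-sided permutation test, p = 0.9, where 0.1 is the smallest this design allows), and without WT replicate 2 the difference turned from -1.71 to 0.646 percentage points. That library also held more lymphocyte RNA: the summed level of 20 T cell genes was 34.1, 160.4 and 34.8 CPM in WT and 24.6, 20.6 and 23.4 CPM in C6KO, and that of 12 B cell genes was 15.9, 178 and 12.2 CPM and 9.82, 6.05 and 10.3 CPM. None of the 46 muscle genes passed the test.

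**Figure D1:**
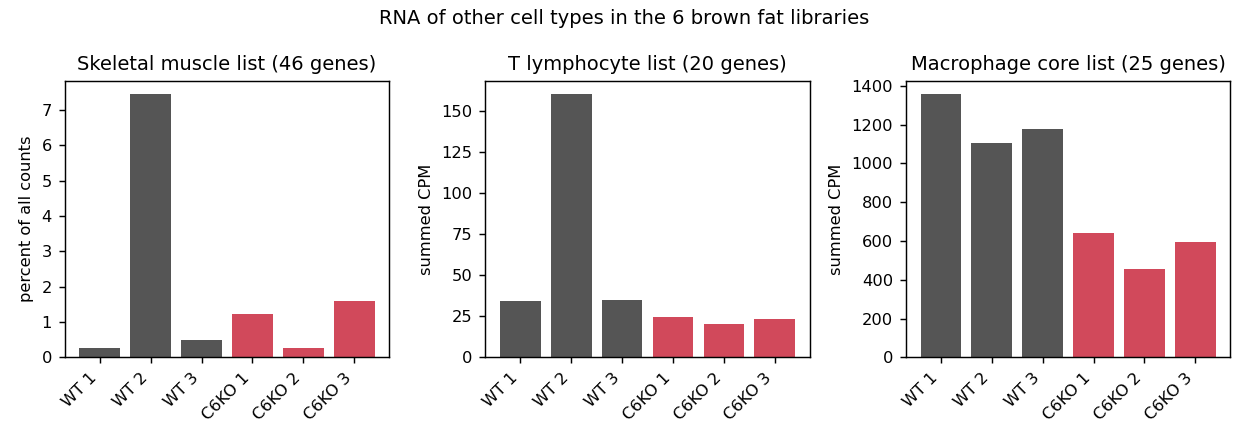
RNA of other cell types in the 6 BAT libraries. The left panel gives the percent of all counts that fell in 46 skeletal muscle genes, and the other panels give the summed CPM of 20 T lymphocyte genes and of 25 macrophage genes, for WT (grey) and C6KO (red) replicates 1 to 3. Muscle RNA reached 7.45% in WT replicate 2, which also had the most T lymphocyte RNA, while the macrophage sum of every C6KO library, at most 644 CPM, lay below that of every WT library, at least 1106 CPM.

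A gene was called when its adjusted p (Benjamini-Hochberg, edgeR's quasi-likelihood test) was below 0.05 and its fold change was at least 1.5. More genes fell than rose: 145 fell (1.07% of those tested) and 23 rose (0.169%) in C6KO BAT. DESeq2 called more, 391 lower (2.65%) and 156 higher (1.06%), and included all 168 genes called by edgeR. The median log2 fold change over all tested genes was -0.03. Lists of genes with a shared function are described by how many of their tested members were called and by their median, to be read against these values. Without WT replicate 2 the numbers were 145 lower and 33 higher, and 137 of the 168 genes stayed called. With the level of muscle RNA as a covariate all 168 stayed called. Without 1 of the other libraries fewer genes were called, from 24 lower (without C6KO replicate 3) to 77 lower (without WT replicate 3) and from 2 higher (without C6KO replicate 1 or 2) to 14 higher (without WT replicate 3). Groups that did not overlap at all (every C6KO library below or above every WT library) occurred for 12.1% of tested genes in the lower and 8.07% in the higher direction.

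**Figure D2:**
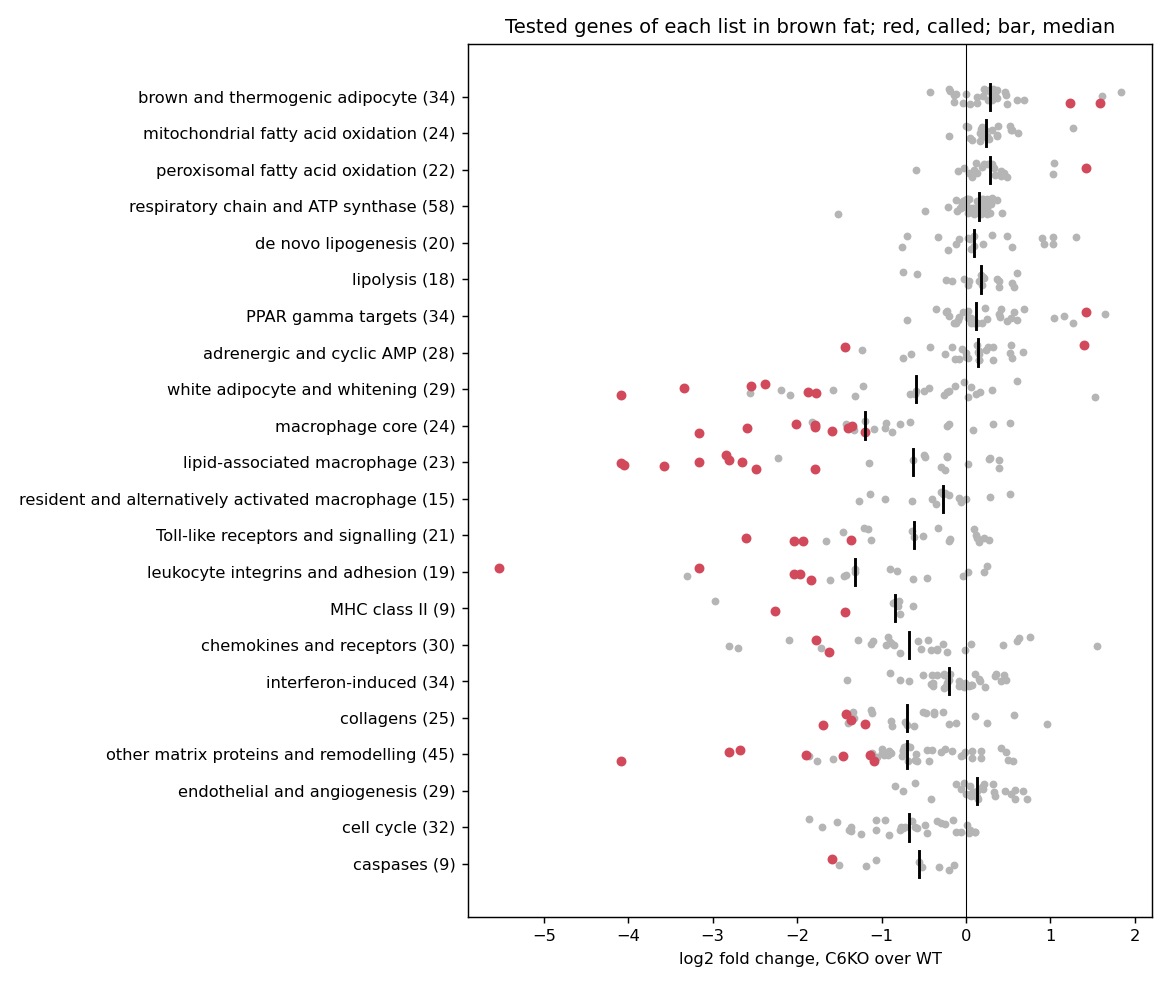
Log2 fold changes (C6KO over WT, horizontal axis) of the tested genes of 22 lists, with the number of tested genes in brackets. Each point is 1 gene, red points are called genes and the black bars are list medians. Red points lie on the left in the macrophage, leukocyte, matrix and white adipocyte lists (macrophage core median -1.20) and few, all on the right, stand in the brown adipocyte and oxidation lists (brown and thermogenic adipocyte median 0.29).

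The genes that define heat production did not pass the test. Ucp1 was at 9763, 4346 and 5951 CPM in the WT and 7627, 6518 and 4058 CPM in the C6KO libraries. These ranges overlapped, and the log2 fold change was -0.14 ± 0.34 (adjusted p = 0.890). Dio2, the deiodinase that activates thyroid hormone in brown fat, Ppargc1a, the coactivator of mitochondrial biogenesis, and Prdm16, which keeps brown identity, had log2 fold changes of 0.32, -0.11 and 0.27 (adjusted p = 0.757, 0.905 and 0.681) with overlapping libraries. The beta-3 adrenergic receptor gene Adrb3 was at 347, 341 and 401 CPM in WT and 454, 684 and 167 CPM in C6KO. The highest and the lowest value both belonged to C6KO libraries.

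Of 34 tested brown and thermogenic adipocyte genes, 2 rose and none fell, with 27 estimates above 0 and a median log2 fold change of 0.29, or 0.16 without WT replicate 2, when 3 rose. Kcnk3, a potassium leak channel that is enriched in brown adipocytes, was at 322, 214 and 348 CPM in WT and 778, 733 and 563 CPM in C6KO. All C6KO libraries were above all WT libraries, and the gene rose 2.35-fold (log2 fold change 1.23 ± 0.23, adjusted p = 0.0421). Slc27a2, an acyl-CoA synthetase for very long chain fatty acids, went from 204, 152 and 237 CPM to 596, 728 and 459.7 CPM, a 3.02-fold rise without overlap (adjusted p = 0.0168). Elovl3, the elongase that cold strongly induces in brown fat, had the largest estimate of the list, with 74.7, 32.9 and 91.4 CPM in WT and 279, 265 and 169 CPM in C6KO. It did not overlap but missed the threshold in edgeR (1.84 ± 0.40, adjusted p = 0.0941), while DESeq2 gave 6.82e-06 and edgeR without WT replicate 2 gave 0.0183. Cidea, which enlarges lipid droplets and marks brown adipocytes, was at 2029.7, 919 and 1805 CPM and 2406, 2789.5 and 2454 CPM (adjusted p = 0.336), with WT replicate 2, the library with the muscle RNA, the lowest of the 6.

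Signalling upstream of heat production showed 1 call in each direction among 28 adrenergic and cyclic AMP genes. Adcy3, an adenylyl cyclase, rose 2.64-fold from 145, 107 and 175 CPM to 322, 453 and 352 CPM (adjusted p = 0.0249). Adcy7, the adenylyl cyclase known mainly from blood cells, fell 2.69-fold from 19.6, 37.02 and 24.2 CPM to 9.93, 10.2 and 9.93 CPM (adjusted p = 0.0299). Neither overlapped between genotypes. In the 9 tested genes of calcium and creatine cycling, the routes to heat that do not use uncoupling protein 1, Alpl rose. This phosphatase, which takes part in the creatine cycle of thermogenic fat, went from 22.5, 18.2 and 24.99 CPM to 39.6, 56.3 and 39.7 CPM (2.07-fold, adjusted p = 0.0449, and 0.0779 without WT replicate 2). The summed level of that list was 509, 9653 and 877 CPM in WT and 1972, 723 and 2305 CPM in C6KO. This sum moved with the muscle RNA, and 1 gene of the list is also in the skeletal muscle list.

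Fatty acid oxidation gave a single call. Among 22 tested genes of peroxisomal fatty acid oxidation, 1 rose and 19 had estimates above 0, with a median of 0.29. The gene that rose was Ehhadh, the bifunctional enzyme of peroxisomal beta-oxidation and a classic PPAR target, which went from 167, 186 and 207 CPM to 624, 532 and 340.3 CPM (2.67-fold, adjusted p = 0.0282). In the mitochondrial oxidation list none of 24 genes was called, 23 estimates were above 0 and the median was 0.24, or 0.09 without WT replicate 2. The 58 genes of the respiratory chain and ATP synthase had no call and a median of 0.15, which became -0.02 without WT replicate 2. Of 34 PPAR gamma target genes only Ehhadh passed the test in edgeR, while DESeq2 called 4 of the list higher. Their median was 0.12. In this list 12 genes did not overlap in the higher direction and 1 in the lower (8.07% and 12.1% of all tested genes).

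Lipolysis genes were not called by edgeR. Pnpla2, which encodes adipose triglyceride lipase (ATGL), the enzyme that starts triglyceride breakdown, was at 2939, 2690.0 and 3009 CPM in WT and 4056, 4512 and 4237 CPM in C6KO. Every C6KO library was above every WT library, with a log2 fold change of 0.57 ± 0.17. The adjusted p was 0.162 in edgeR and 0.00281 in DESeq2. Lipe, the hormone-sensitive lipase, and Plin1, the droplet protein that guards the stored fat, had log2 fold changes of 0.19 and 0.03 (adjusted p = 0.711 and 0.970). None of 18 lipolysis genes passed the test in edgeR, while DESeq2 called 2 of the list higher.

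Fasn and Scd1, genes of lipid synthesis, varied among the C6KO libraries. Fasn, fatty acid synthase, was at 1565, 1371 and 2688 CPM in WT and 6132, 6614 and 1148 CPM in C6KO, and Scd1, the desaturase that makes oleate, at 25435, 19996 and 25910.4 CPM and 21049, 19232 and 3649 CPM. C6KO replicate 3 was the lowest library for both, C6KO replicates 1 and 2 were the highest for Fasn, and neither gene passed the test (adjusted p = 0.516 and 0.713). Acacb, the acetyl-CoA carboxylase that restrains mitochondrial fat import, was at 565, 812 and 939 CPM and 1594, 1724 and 1409 CPM, without overlap and short of the threshold (adjusted p = 0.0661, DESeq2 1.09e-04). No gene of the de novo lipogenesis list (20 tested) or of the triglyceride synthesis list (18 tested) was called by edgeR, and the same held for glycolysis, insulin signalling, branched-chain amino acid breakdown, cholesterol synthesis, the citric acid cycle and AMPK subunits. DESeq2 called 3 higher in de novo lipogenesis, 2 higher and 1 lower in cholesterol synthesis, and 1 lower in insulin signalling.

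**Figure D3:**
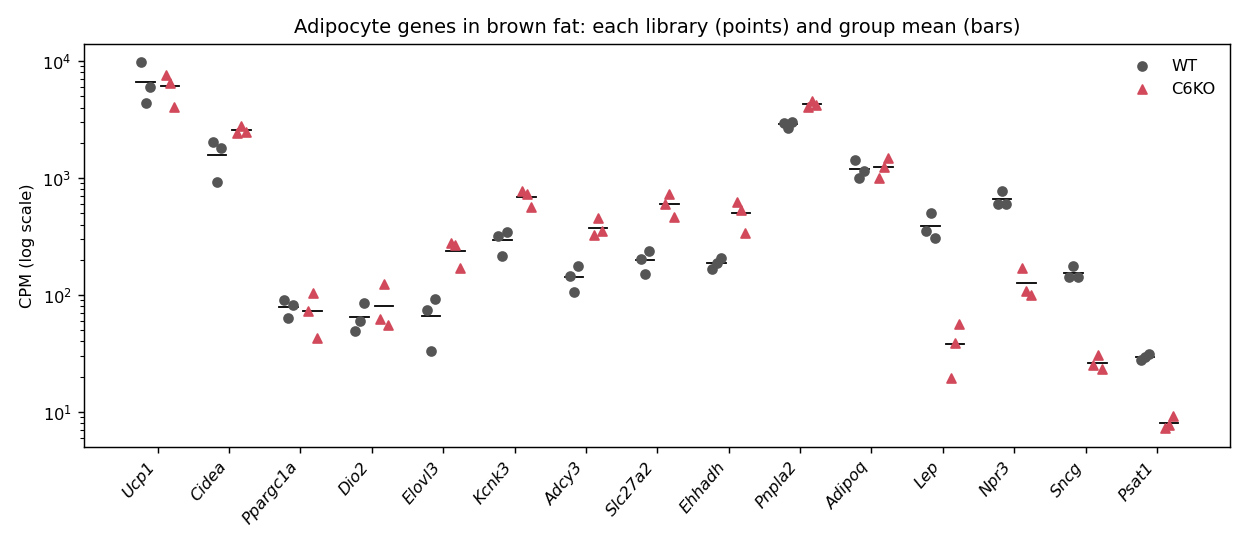
CPM (log axis) of 15 adipocyte genes in the 6 BAT libraries. Grey circles are WT libraries, red triangles are C6KO libraries and bars are group means. Ucp1, Ppargc1a, Dio2 and Adipoq overlapped between genotypes, Cidea, Elovl3, Kcnk3, Adcy3, Slc27a2, Ehhadh and Pnpla2 lay higher in every C6KO library, and Lep, Npr3, Sncg and Psat1 lay lower in every C6KO library.

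Genes of white adipocytes, which mark whitening, fell in part. Of 29 tested genes of the white adipocyte and whitening list, 6 fell and none rose, with a median of -0.59 (-0.47 without WT replicate 2, when 8 fell). Lep, which encodes the hormone leptin, was at 352, 505 and 309 CPM in WT and 19.5, 38.9 and 56.2 CPM in C6KO. The highest C6KO library was far below the lowest WT library, and the gene fell 10.2-fold (log2 fold change -3.35 ± 0.41, adjusted p = 0.0146). Npr3, the clearance receptor that removes natriuretic peptides and so limits their lipolytic signal, fell 5.20-fold from 601, 770.4 and 596 CPM to 171, 107 and 100.3 CPM (adjusted p = 0.00432). Sncg, gamma-synuclein, a protein of white adipocytes and nerves, fell 5.84-fold from 143, 175 and 142 CPM to 25.2, 30.4 and 23.2 CPM (adjusted p = 5.04e-04). Psat1, an enzyme of serine synthesis that serves as a marker of white against brown fat, fell 3.66-fold from 27.9, 29.5 and 31.2 CPM to 7.21, 7.79 and 9.15 CPM (adjusted p = 0.00388). These 4 genes are adipocyte genes, whereas the remaining calls of the list, Mmp12 and Ccl9, are made by macrophages.

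Other white adipocyte genes were not called. Adipoq, which encodes adiponectin, was at 1434, 991 and 1145 CPM and 1000.1, 1242 and 1479 CPM (adjusted p = 0.932), and Retn, which encodes resistin, had a log2 fold change of 0.12 ± 0.37. Cfd, the secreted protease adipsin, had estimates in the opposite direction: it was at 501, 400.4 and 343 CPM in WT and 710.0, 1137 and 1753 CPM in C6KO, without overlap, and missed the threshold (adjusted p = 0.0643, DESeq2 2.28e-05). Mest and Nnat, imprinted genes that track adipocyte expansion, were at 54.8, 164 and 47.1 CPM against 16.4, 15.4 and 26.3 CPM and at 163, 407 and 155 CPM against 42.6, 77.1 and 51.3 CPM. For both genes the C6KO libraries all lay under the lowest WT library, with WT replicate 2 the highest, and neither passed the test (adjusted p = 0.207 and 0.118). DESeq2 gave 2.35e-05 and 1.72e-06. Without WT replicate 2 both passed in edgeR, Mest with a log2 fold change of -1.39 in place of -2.19 (adjusted p = 0.0238) and Nnat with -1.47 in place of -2.08 (adjusted p = 0.0185).

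The promoter of Lep, the white adipocyte gene with the largest fall, is shown for a motif of C/EBP factors, which drive adipocyte genes. In the RefSeq promoter (GRCm38.p6, chr6:29060140-29060199, plus strand), the palindromic C/EBP motif TTGCGCAA (capitals) begins 55 bases before the transcription start:
Lep: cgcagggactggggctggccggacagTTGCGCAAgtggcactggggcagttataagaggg
These letters occur in the 250 bases before the start of 50 of 27025 genes (0.185%) and in 1 of the 116 called lower genes that had a promoter sequence. A PPAR response element, AGGTCA repeated after 1 base of any kind, was in the same window of 11 genes (0.0407%), and in no called gene.

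Macrophage genes held more of the calls than any adipocyte list. Of 24 tested macrophage core genes, 9 fell and none rose, and 17 did not overlap in the lower direction (12.1% of all tested genes). Their median log2 fold change was -1.20 (-1.24 without WT replicate 2, when 12 fell). Their summed level was 1357, 1106 and 1177 CPM in WT and 644, 456 and 597 CPM in C6KO. In bulk tissue, fewer macrophages and less RNA of these genes per macrophage cannot be told apart. Lyz2, the lysozyme of myeloid cells, fell 2.64-fold from 396, 296 and 306 CPM to 162, 92.02 and 124 CPM (adjusted p = 0.0282). Adgre1, which encodes the F4/80 antigen, fell 3.45-fold from 53.2, 33.7 and 38.6 CPM to 14.4, 10.4 and 11.6 CPM (adjusted p = 0.00960). Cd68, a lysosomal glycoprotein of phagocytes, fell 4.03-fold from 61.3, 47.9 and 50.4 CPM to 17.5, 8.78 and 13.4 CPM (adjusted p = 0.00960). The remaining calls were Itgax, Cd84, Tyrobp, Laptm5, C1qc and Spi1, of which Spi1 encodes PU.1, the transcription factor that myeloid cells depend on (19.1, 14.2 and 12.3 CPM in WT, 4.85, 3.81 and 6.52 CPM in C6KO, adjusted p = 0.0314).

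Larger folds were found among genes of the state that macrophages take on around dying, lipid-filled adipocytes. Among 23 tested lipid-associated macrophage genes, 9 fell and none rose (10 fell without WT replicate 2), with a median of -0.62. Atp6v0d2, a subunit of the lysosomal proton pump in macrophages and osteoclasts, had nearly equal libraries within each genotype, with 25.1, 24.5 and 22.3 CPM in WT and 1.42, 1.24 and 1.65 CPM in C6KO, and fell 16.6-fold (log2 fold change -4.05 ± 0.22, adjusted p = 1.02e-04). Mmp12, macrophage elastase, fell 16.98-fold from 91.8, 66.3 and 47.2 CPM to 4.73, 2.07 and 5.35 CPM (adjusted p = 0.00960). Trem2, the lipid-sensing receptor of these cells, fell 11.98-fold from 30.8, 14.6 and 15.8 CPM to 1.06, 1.16 and 2.82 CPM (adjusted p = 0.0132). In every library of C6KO the 3 genes were below their lowest WT value.

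Gpnmb, a glycoprotein of lipid-loaded phagocytes, fell 6.27-fold from 66.9, 101 and 74.9 CPM to 15.3, 8.45 and 15.1 CPM (adjusted p = 0.00423), and Lgals3, galectin-3, fell 7.19-fold from 155, 102 and 116 CPM to 24.7, 8.61 and 18.7 CPM (adjusted p = 0.0271). Itgax, the CD11c integrin that marks macrophages recruited in obesity, fell 8.98-fold from 17.1, 16.8 and 16.8 CPM to 2.13, 2.40 and 1.07 CPM (adjusted p = 0.00388). Spp1 (osteopontin), Slc37a2 and Tyrobp completed the 9. Members of the list that adipocytes also express were not called: Lpl, lipoprotein lipase, was at 5815, 6409.9 and 7409 CPM and 7165, 9871 and 8692 CPM (adjusted p = 0.435), and the lysosomal protease gene Ctsd at 1822, 1481 and 1800.0 CPM and 1593, 1539.8 and 1237 CPM (adjusted p = 0.676).

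Tissue-resident macrophage genes were not called. Of 15 tested, none passed the test in edgeR and 3 were lower in DESeq2. Estimates were below 0 for 12, and 4 did not overlap in the lower direction (12.1% of all tested genes). The median was -0.28 (-0.14 without WT replicate 2, when 1 fell). Cd163 and Mertk were among the 3 with estimates above 0, against the direction of most of the list. Cd163, a haemoglobin scavenger receptor of resident macrophages, was at 7.88, 24.9 and 19.2 CPM in WT and 24.5, 22.4 and 28.03 CPM in C6KO (adjusted p = 0.613), and Mertk, a receptor for the uptake of dead cells, at 15.9, 21.2 and 28.9 CPM and 20.1, 30.2 and 32.3 CPM (adjusted p = 0.657). Both overlapped, with the lowest value in WT replicate 1. The mannose receptor gene Mrc1 was at 85.6, 68.4 and 92.4 CPM and 48.6, 30.6 and 47.8 CPM, lower in every C6KO library and short of the threshold (adjusted p = 0.0714, DESeq2 0.00397, and 0.0420 without WT replicate 2).

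**Figure D4:**
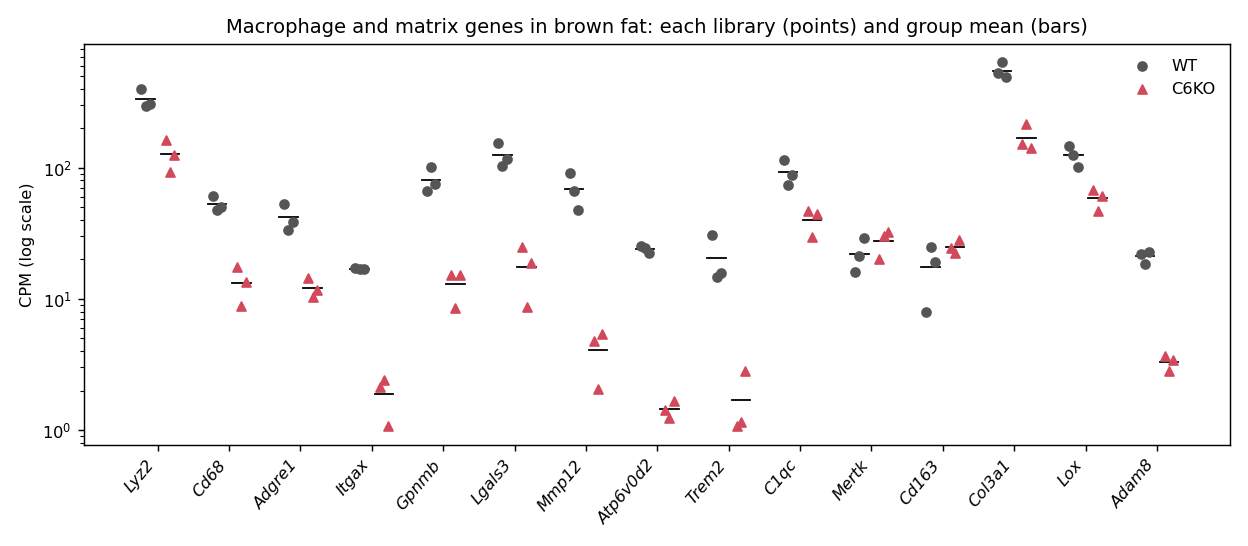
CPM (log axis) of 12 macrophage genes and 3 matrix genes in the 6 BAT libraries. Grey circles are WT libraries, red triangles are C6KO libraries and bars are group means. All genes shown other than Mertk and Cd163 lay lower in every C6KO library than in any WT library, and Atp6v0d2 and Itgax had WT values close together, 22.3 to 25.1 and 16.8 to 17.1 CPM.

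Because Spi1 fell together with other myeloid genes, the letters of a PU.1 motif, GAGGAAGT, were looked up on both strands in the 250 bases before the start of RefSeq genes (GRCm38.p6). They were present for 755 of 27025 genes (2.79%), for 9 of 116 called lower genes (7.76%) and for 2 of 21 called higher genes (9.52%). A match is a description of the letters and not of binding. Arhgap25, Tnip3 and Vsig8, which are among the 9 called lower genes with a match, are not shown. The windows of the other 6, picked as genes of macrophages and other leukocytes, are given with the motif, or its reverse complement ACTTCCTC, in capitals:
C1qc (chr4:136893076-136893135, minus strand): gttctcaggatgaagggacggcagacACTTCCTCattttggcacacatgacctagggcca
Cd72 (chr4:43454642-43454701, minus strand): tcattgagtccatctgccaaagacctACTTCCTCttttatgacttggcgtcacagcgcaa
Hpgds (chr6:65144746-65144805, minus strand): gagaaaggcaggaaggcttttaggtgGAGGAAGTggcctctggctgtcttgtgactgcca
Mmp12 (chr9:7344283-7344342, plus strand): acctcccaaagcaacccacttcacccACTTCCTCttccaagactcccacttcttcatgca
Spp1 (chr5:104434972-104435031, plus strand): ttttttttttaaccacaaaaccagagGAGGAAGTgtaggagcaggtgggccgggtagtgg
Tlr1 (chr5:64933559-64933607, minus strand): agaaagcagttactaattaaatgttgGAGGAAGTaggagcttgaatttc
The matches end 188, 42, 42, 81, 106 and 16 bases before the RefSeq start of C1qc, Cd72, Hpgds, Mmp12, Spp1 and Tlr1. For Mmp12 the counted transcript (NM_001320076) begins further downstream, at chr9:7347374, so the window is not directly before its start.

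Receptors and effectors of innate immunity fell in smaller numbers per list. Among 21 tested Toll-like receptor genes 4 fell: Tlr1, Tlr13, the adaptor Pik3ap1, and Lbp, which hands bacterial lipopolysaccharide to its receptor. Pik3ap1 was not called without WT replicate 2 (adjusted p = 0.0928). Tlr13 was at 13.2, 9.17 and 14.2 CPM in WT and 4.02, 2.15 and 3.41 CPM in C6KO (adjusted p = 0.0242). Among 19 leukocyte integrin and adhesion genes 5 fell, with a list median of -1.32 (-0.82 without WT replicate 2): Itgad, Itgax, Cd44, Itgb2 and Cd48. Itgb2, the beta-2 chain shared by leukocyte integrins, fell 3.91-fold from 35.5, 42.7 and 31.1 CPM to 9.22, 7.54 and 11.2 CPM (adjusted p = 0.00463), and Cd44, the hyaluronan receptor, fell 4.11-fold from 38.1, 37.5 and 32.8 CPM to 9.11, 9.77 and 7.50 CPM (adjusted p = 0.00243).

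Antigen presentation through MHC class II gave 2 calls of 9, Ctss, the cathepsin that trims the invariant chain (132, 104 and 91.3 CPM in WT, 24.5, 15.9 and 27.6 CPM in C6KO, adjusted p = 0.00432), and H2-DMb1, which was not called without WT replicate 2 (adjusted p = 0.0714), and all 9 estimates were below 0. MHC class I genes gave none of 15. Cybb, the catalytic subunit of the phagocyte oxidase, fell 2.35-fold from 34.6, 35.7 and 37.8 CPM to 19.5, 12.01 and 14.5 CPM (adjusted p = 0.0249), and Clec7a, the receptor for fungal beta-glucan, fell 3.21-fold (adjusted p = 0.0242).

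Few cytokine genes had enough counts for a test. Of 22 inflammatory cytokine genes 10 could be tested and none was called. Ccl2, the chemokine that draws monocytes, was at 16.2, 4.23 and 5.10 CPM in WT and 2.13, 0.663 and 1.17 CPM in C6KO, lower in every C6KO library but short of the threshold (adjusted p = 0.107, DESeq2 9.28e-04, and 0.0455 without WT replicate 2). Tnf, Il1b, Il6 and Ifng had too few counts to be tested, with no library above 1.29 CPM. The 34 tested interferon-induced genes had no call and a median of -0.20.

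Complement genes went both ways. C3, the central complement protein, which adipocytes also make, rose 2.13-fold from 411, 453 and 567 CPM to 1019, 1093 and 931 CPM (adjusted p = 0.0306), whereas the macrophage-derived C1qc and Itgax and the anaphylatoxin receptors C3ar1 and C5ar1 fell. C3ar1 went from 49.1, 35.2 and 40.2 CPM to 14.9, 7.95 and 10.1 CPM (3.78-fold, adjusted p = 0.00999) and C5ar1 from 45.4, 30.1 and 37.2 CPM to 17.5, 9.11 and 10.03 CPM (3.08-fold, adjusted p = 0.0298). For all of these the genotypes did not overlap.

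Lymphocyte and mast cell genes gave single calls. Il7r, the interleukin-7 receptor, fell 17.5-fold from 9.43, 24.4 and 5.30 CPM to 1.06, 0.331 and 0.876 CPM (adjusted p = 0.0469), the only call among 7 tested T lymphocyte genes, and its highest value was in WT replicate 2. Cd3e, part of the T cell receptor complex, was at 1.42, 11.7 and 2.10 CPM and 2.13, 1.24 and 1.95 CPM (adjusted p = 0.467). Without WT replicate 2 the log2 fold change of Il7r went from -4.13 to -3.29 (adjusted p = 0.0163), and that of Cd3e from -1.54 to -0.01 (adjusted p = 0.995). The T lymphocyte median was -1.54, and -0.53 without WT replicate 2. Hpgds, which makes prostaglandin D2 in mast cells and macrophages, fell 3.92-fold from 10.6, 10.05 and 13.4 CPM to 4.38, 1.74 and 2.63 CPM (adjusted p = 0.0328), whereas Hdc, the enzyme that makes histamine, was higher in every C6KO library (6.72, 4.94 and 8.20 CPM against 19.4, 13.2 and 15.96 CPM, adjusted p = 0.0505). None of the other mast cell genes passed the test.

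Some matrix genes fell as well. Of 25 tested collagen genes 4 fell and none rose (median -0.69). Col3a1, the fibrillar collagen of reticular fibres, was at 522, 637 and 488 CPM in WT and 150.3, 215 and 142 CPM in C6KO, a 3.25-fold fall without overlap (adjusted p = 0.00972). Col5a2 fell 2.56-fold (adjusted p = 0.0132), and Col5a3 and Col18a1 were also called, while the major fibrillar collagen genes Col1a1 and Col1a2 had log2 fold changes of -1.32 and -1.12 and missed the threshold (adjusted p = 0.150 and 0.0869). The summed level of the collagens was 2388, 3371 and 2859 CPM in WT and 1725, 2087 and 1665 CPM in C6KO, and the median without WT replicate 2 was -0.63.

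Among 45 other matrix and remodelling genes 7 fell and none rose, with a median of -0.70. Lox, lysyl oxidase, which crosslinks collagen, fell 2.13-fold from 145, 125 and 102 CPM to 67.3, 46.8 and 60.8 CPM (adjusted p = 0.0324). Tnc, tenascin C, a matrix protein of injured tissue, fell 3.72-fold from 14.9, 16.3 and 11.7 CPM to 4.38, 4.39 and 2.73 CPM (adjusted p = 0.0132). Adam8, a membrane protease of leukocytes, fell 6.39-fold from 21.97, 18.4 and 22.8 CPM to 3.67, 2.82 and 3.41 CPM (adjusted p = 0.00153). Lum, Adamts5, Mmp12 and Spp1 made up the rest, so the group mixed fibroblast products with macrophage products. Pcolce, which speeds procollagen processing and was not in the list, fell 2.68-fold from 222, 145 and 196 CPM to 73.4, 63.03 and 73.3 CPM (adjusted p = 0.0104).

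Lists of other stromal cell types had no call. Of 22 adipocyte progenitor genes, 13 pericyte and smooth muscle genes and 29 endothelial genes none was called, and the endothelial median was 0.13. Vegfa, the main angiogenic factor of brown fat, was at 416, 393 and 468 CPM in WT and 588, 739.9 and 591 CPM in C6KO, higher in every C6KO library and short of the threshold (adjusted p = 0.176). Of 32 cell cycle genes none was called and 27 estimates were below 0 (median -0.68). The proliferation marker Mki67 was at 6.07, 9.34 and 10.1 CPM and 2.48, 2.32 and 5.16 CPM (adjusted p = 0.142). Globin transcripts varied between libraries, with a summed erythroid level of 864, 202 and 393 CPM in WT and 93.7, 69.7 and 537 CPM in C6KO.

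Stress and death genes gave few calls. Of 32 tested genes of the unfolded protein and integrated stress response, 28 had estimates below 0 and Psat1 alone was called, while Atf4, the transcription factor of that response, was at 245, 211 and 170.4 CPM in WT and 131, 105 and 99.5 CPM in C6KO (adjusted p = 0.0618, DESeq2 9.75e-04). Among 9 tested caspase genes Casp12 fell 3.01-fold from 13.7, 17.98 and 11 CPM to 4.14, 3.89 and 6.13 CPM (adjusted p = 0.0318, and 0.0579 without WT replicate 2). All 9 caspase estimates were below 0, and 7 genes did not overlap in the lower direction (12.1% of all tested genes). Casp6, the deleted gene, is counted in both the 9 and the 7. No pyroptosis or necroptosis gene of 12 tested and no apoptosis regulator of 21 tested was called. The 12 all had estimates below 0 (median -0.77), and 5 did not overlap in the lower direction (12.1% of all tested genes). Among the 21 apoptosis regulators 13 estimates were below 0 (median -0.15), with 4 not overlapping in the lower and 1 in the higher direction (12.1% and 8.07% of all tested genes). Gsta3, a glutathione transferase, was the call among 37 antioxidant genes (3.12-fold lower, adjusted p = 0.0430, and 0.0686 without WT replicate 2), and Gpx3, the secreted glutathione peroxidase, was higher in every C6KO library (2185, 1556 and 2292 CPM against 3928, 4051 and 4094 CPM, adjusted p = 0.0516, and 0.0323 without WT replicate 2).

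Among the most abundant genes that fell, beside Npr3, Col3a1, Lyz2, Lep, Pcolce and Lox, were Tmem45b (663, 568 and 363 CPM in WT, 184, 133 and 158 CPM in C6KO), Anxa2, a membrane-binding annexin (398, 329 and 272 and 121, 133 and 129 CPM), and Emp1, an epithelial membrane protein (178, 212 and 128 and 54.8, 57.2 and 59.9 CPM), with adjusted p of 0.0132, 0.0104 and 0.00960. The most abundant gene that rose was Glul, glutamine synthetase, which went from 762, 884 and 1088 CPM to 1851, 2042 and 2567 CPM (2.36-fold, adjusted p = 0.0298). Aacs, which activates the ketone body acetoacetate for lipid synthesis, rose 3.74-fold from 46.5, 41.2 and 83.6 CPM to 187, 246 and 207 CPM (adjusted p = 0.0161). Cad, the enzyme that starts pyrimidine synthesis, rose 1.94-fold from 79.2, 76.8 and 85.5 CPM to 174, 156 and 137 CPM (adjusted p = 0.0235). Tcn2, the vitamin B12 carrier, and Fbxo31, a ubiquitin ligase subunit, were the other abundant ones (1.97-fold and 2.34-fold, adjusted p = 0.0303 and 0.0489).

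Large ratios came from genes with few counts in 1 genotype. Gbp2b, an interferon-inducible guanylate-binding protein with near-identical relatives, was counted 3, 0 and 4 times in the WT libraries and 248, 417 and 379 times in those of C6KO (adjusted p = 0.00243), a ratio of 139 of the summed counts per library total (95% interval 67.2 to 346 for counting error only). Tph2, a tryptophan hydroxylase of serotonin synthesis, was counted 44, 109 and 35 times in the WT libraries and 1, 1 and 0 times in those of C6KO, a ratio of 101 in the other direction (27.5 to 839). Kcnj14, an inward rectifier potassium channel, was counted 13, 25 and 11 times in the WT libraries and not at all in C6KO, at least 17.5-fold lower with a floor of 3 counts over the group. Itgad, an integrin chain of leukocytes, and Vsig8 had 2 counts each over the 3 C6KO libraries, with ratios of 59.0 (16.0 to 494) and 31.7 (8.39 to 268). Slc5a7, the choline transporter of nerve endings, had 6, with a ratio of 21.5 (9.58 to 59.7). Rgs1, a regulator of G protein signalling in leukocytes, fell 14.2-fold from 12.9, 9.25 and 8.30 CPM to 1.06, 0.414 and 0.681 CPM (adjusted p = 0.00432). Further increases were those of Lrrn4, Rassf6, Pbld1, Etfbkmt, Gm4285 and Lrrc15, which rose 5.32-fold, 3.78-fold, 3.61-fold, 2.57-fold, 2.51-fold and 2.43-fold. Lrrn4, a mesothelial gene, reached at most 5.26 CPM. Further decreases were those of 1700047G03Rik and Ubd, which fell 13.4-fold and 10.4-fold. Without WT replicate 2, Slc5a7, Kcnj14 and Rassf6 were not called (adjusted p = 0.0571, 0.0587 and 0.102). In the same fit the log2 fold changes of Slc5a7, Itgad, 1700047G03Rik and Gbp2b went from -4.26, -5.53, -3.74 and 7.03 to -3.56, -4.56, -3.08 and 6.37.

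Genes beside Casp6 on chromosome 3, which can be inherited together with the knockout allele, were examined as a set. Whether they were inherited with it in these mice was not tested. Of 79 tested genes within 10 Mb, 4 fell and none rose (1.07% and 0.169% of all tested genes). Rpl34, a protein of the large ribosomal subunit (NM_026724 at chr3:130726827-130730337), was counted 462, 392 and 361 times in the WT libraries and 9, 11 and 9 times in those of C6KO, a 45.3-fold fall (adjusted p = 1.02e-04). Rpl34-ps1 is annotated on the same strand over the same bases and had 450, 383 and 352 and 0, 1 and 6 counts, so most of their reads can belong to either. Ribosomal protein genes also have many near-identical pseudogene copies, among which counting can split reads. The alcohol dehydrogenase genes Adh1 (NM_007409 at chr3:138277585-138290697; 207, 149 and 198 CPM in WT, 67.6, 59.5 and 105 CPM in C6KO, adjusted p = 0.0431) and Adh6b, its relative, were the other calls. Gbp2b (NM_010259 at chr3:142594847-142619176) lies on the same chromosome beyond that distance.

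To ask where brown fat differed from white fat in its response, the C6KO effect in BAT was set against the mean of the effects in iWAT and eWAT in 1 fit of all 18 libraries. Of 14175 genes tested, 74 had a lower effect in BAT (0.522%) and 26 a higher one (0.183%), and 34 and 9 of these were also called in BAT itself. Whether the depots came from the same mice was not given in the sources used here, and the fit treats the libraries as independent. Lep had a log2 fold change of -3.35 in BAT, 0.53 in eWAT and -0.20 in iWAT, a difference of -3.50 ± 0.43 (SE, adjusted p = 7.08e-04). Sncg had -2.55, 0.63 and 0.26 (difference -2.99 ± 0.17, adjusted p = 4.56e-08), and Npr3 had -2.38, 0.73 and 0.05 (difference -2.77 ± 0.32, adjusted p = 4.63e-04). In each of these white adipocyte genes the effect in BAT was the lowest of the 3 depots and the eWAT estimate was above 0.

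Further genes with a lower effect in BAT were Vgll3, a transcriptional cofactor that restrains adipocyte formation (difference -3.27 ± 0.55, adjusted p = 0.0120), and Sucnr1, the succinate receptor (difference -2.89 ± 0.39, adjusted p = 0.00161), whose call in BAT itself was lost without WT replicate 2 (adjusted p = 0.0676). Genes with a higher effect were C3 (difference 1.72 ± 0.27, adjusted p = 0.00523), Glul (difference 1.36 ± 0.26, adjusted p = 0.0172), Aacs, Adcy3 and Kcnk3 (difference 1.06 ± 0.23, adjusted p = 0.0368). C3 had log2 fold changes of 1.09 in BAT, -0.45 in eWAT and -0.82 in iWAT. Slc27a2 and Ehhadh, which rose in BAT, were not called in the contrast (differences -1.78 ± 1.07 and 0.19 ± 0.28, adjusted p = 0.558 and 0.858). Ehhadh had log2 fold changes of 1.42 in BAT, 1.12 in eWAT and 1.34 in iWAT.

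The macrophage decrease was not called as different from white fat. Of the 9 called macrophage core genes and the 9 called lipid-associated macrophage genes, none was called in the contrast, but Cd84 was not tested there. A missing call does not show that the effects were equal. The median difference was -0.17 in the core list and -0.65 in the lipid-associated list, against -0.07 over all genes. Cd68, for example, had log2 fold changes of -2.01 in BAT, -0.28 in eWAT and -1.61 in iWAT, and Mmp12 had -4.09, -0.22 and -1.83. Their differences between BAT and white fat were -1.07 ± 0.52 and -3.07 ± 0.77 (adjusted p = 0.429 and 0.0930), so neither passed the test. Rpl34 fell in all 3 depots by similar amounts (-5.50 in BAT, -5.74 in eWAT and -5.04 in iWAT, on the log2 scale).

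**Figure D5:**
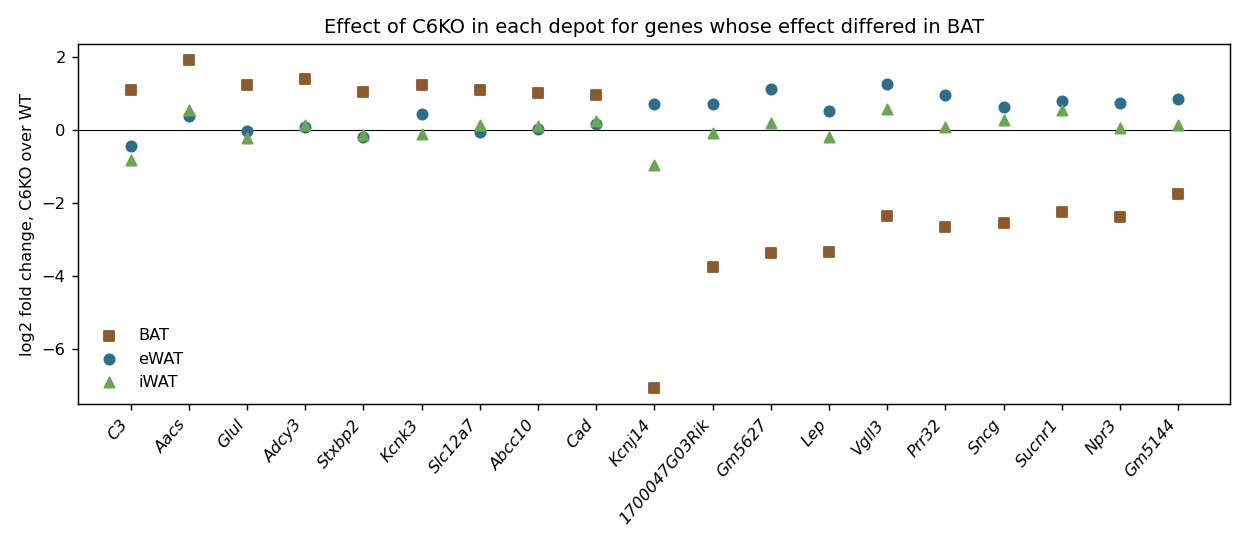
Log2 fold change (C6KO over WT, vertical axis) in BAT (squares), eWAT (circles) and iWAT (triangles), each from its own fit, for the 19 named genes called both in BAT and in the contrast of BAT against the white depots. Genes on the left, from C3 to Cad, were highest in BAT and genes from Kcnj14 to Gm5144 were lowest in BAT, for example Lep at -3.35 against 0.53 and -0.20.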

How the data were processed

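The authors mapped reads to mm10 with STAR and counted reads in exons per gene with HOMER, without saying whether strand was used, so a gene and an antisense partner may share reads. Versions were not given in the sources used here. The BAT, eWAT and iWAT tables deposited by the authors hold raw counts, which were used unchanged. Genotype and replicate came from the sample titles. Genes passing edgeR's filterByExpr were fitted with its quasi-likelihood test (edgeR 4.0.16, R 4.3.3, robust, TMM), after tests on simulated data. Adjusted p are over all genes tested, and SE is the log2 fold change over the root of its F statistic. DESeq2 1.42.0, as in the study, other filters and scalings, muscle corrections and leaving out each library were the alternatives. Promoters came from RefSeq (GRCm38.p6): 116 of 145 and 21 of 23 called genes matched. Genes, lists, motifs and tests were chosen with earlier results of these data known. Genes were named as list members (called ones, then smallest p), the 15 largest called changes each way that did not overlap with a mean of at least 1 CPM, the 10 most abundant called each way, the 10 smallest adjusted p, called genes within 10 Mb of Casp6, and the 10 largest each way called in both BAT and the contrast. Some genes that these rules name are not reported here.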

Additional observations from a re-analysis of the deposited data

Results flagged for a closer look

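The effect of C6KO differed between BAT and the white depots, by the contrast in 1 edgeR fit of 18 libraries, for 19 named genes that were also called in BAT. The difference (BAT log2 fold change minus the mean of eWAT and iWAT) was above 0 for C3 (1.72), Aacs (1.45), Glul (1.36), Adcy3 (1.30), Stxbp2 (1.20), Kcnk3 (1.06), Slc12a7 (1.04), Abcc10 (0.94) and Cad (0.76). It was below 0 for Kcnj14 (-7.67), 1700047G03Rik (-4.07), Gm5627 (-4.02), Lep (-3.50), Vgll3 (-3.27), Prr32 (-3.18), Sncg (-2.99), Sucnr1 (-2.89), Npr3 (-2.77) and Gm5144 (-2.27). Kcnj14 had no count in any C6KO BAT library, so its value depends on the prior count and is no bound. Groups of 3 were too small for a test of single outlying libraries.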

How the results depend on the processing

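All 168 calls kept their direction under every alternative in which the gene was fitted. Leaving out each library in turn gave 24 to 145 lower and 2 to 33 higher genes, and 17 genes stayed called each time (16 lower, among them Atp6v0d2, Itgax, Npr3 and Sncg, and Gbp2b higher). The lower count was 72 without WT replicate 1, 77 without WT replicate 3, and 35, 27 and 24 without C6KO replicates 1, 2 and 3, and the higher count was 5, 14, 2, 2 and 4 in that order. DESeq2 called 391 lower and 156 higher, the fit without the robust option 69 and 8, the test against a fold of 1.5 gave 51 and 2, and the muscle covariate 241 and 67. Without a filter 47 were higher, and with at least 10 counts in every library 36. The cause of these changes was not tested.

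The deviations of same-numbered libraries had negative correlations (-0.297, -0.603 and -0.244). With so few libraries per group, a single library weighs heavily in such deviations. The correlations therefore cannot decide whether the numbers pair the samples. With the replicate block 101 genes were lower and 12 higher, 94 of the 168 stayed called, and the Casp6 adjusted p was 0.141 at -1.52. The Casp6 log2 fold change was -1.77 to -1.22 without single libraries (adjusted p 0.0429 to 0.268) and passed the threshold with DESeq2 (-1.48), without a filter (-1.47) and with the muscle covariate (-1.50).

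The muscle difference was -2.95 to 0.646 percentage points without single libraries, above 0 only without WT replicate 2. In the contrast with white fat, 10 genes were higher against eWAT alone and 11 against iWAT alone, 19 were lower against iWAT alone, and the replicate block gave 10 higher and 55 lower. Leaving out each BAT library gave 14 to 52 higher (52 without WT replicate 3, 14 without WT replicate 1, 17 and 16 without C6KO replicates 1 and 2) and 36 to 113 lower (113 without WT replicate 3, 47 and 36 without C6KO replicates 1 and 2).

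For genes that were named without being called, the log2 fold change without single libraries ran from -0.085 to 0.24 for Adipoq, -0.20 to 0.65 for Adrb3, -0.11 to 0.61 for Dio2, -0.068 to 0.13 for Plin1, -0.43 to 0.16 for Ppargc1a, -0.13 to 0.50 for Retn and -0.37 to 0.26 for Ucp1, crossing 0 for each.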

Other observations

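Further gene groups of BAT that the comparison above left out gave few or no calls. Of 21 immediate early genes, which respond within minutes to stimulation, none was called by edgeR and 6 were lower in DESeq2, and 19 estimates were below 0 (median -0.63). Of 18 circadian clock genes none was called, with a median of 0.26, and none of 15 hypoxia genes was called (median 0.01). Among 19 tested genes for signals that brown fat secretes none was called (median -0.37). The 7 tested MS4A genes, membrane proteins of leukocytes, all had estimates below 0 (median -1.49), as did 7 of 8 Fc receptor genes (median -1.03). Neither group had a call in edgeR, while DESeq2 called 4 lower in each list. Cd83, a marker of mature dendritic cells, fell among 6 dendritic cell genes. The 20 genes of mitochondrial biogenesis and dynamics had no call and a median of 0.07.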
